A study of Homo sapiens with 12 samples.

Results

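The genes described here encode the proteasome, the protease complex that degrades ubiquitin-tagged proteins, and were chosen by name: every row of the deposited count table whose symbol is PSMA, PSMB, PSMC, PSMD, PSME, PSMF or PSMG followed by digits only. The rule took 48 of the 26485 genes in the table, and 46 of these passed the filter on low counts. They were followed in the established human cell lines COV362 and PEO1, both derived from high-grade serous ovarian carcinoma. Each line received either DMSO, the solvent control, or 20 nM prexasertib, a small molecule that blocks the DNA damage checkpoint kinases CHK1 and CHK2, and each of the 4 groups held 3 libraries lettered A, B and C. How long the drug was applied, and whether the letters stand for separate cultures, is not given in the sources used here, so p-values measure only the spread between these libraries, which may be technical. Messenger RNA was measured by sequencing of polyadenylated RNA with a kit that keeps no strand information. No protein and no proteasome activity was measured.

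The proteasome consists of a barrel, the 20S core, and caps that control entry to it. The barrel has outer rings of alpha subunits (PSMA genes), which form the gate, and inner rings of beta subunits (PSMB genes), of which PSMB5, PSMB6 and PSMB7 carry the protease sites. The 19S cap binds ubiquitin chains, unfolds the substrate with a ring of ATPases (PSMC genes) and removes the ubiquitin with help from non-ATPase subunits (PSMD genes). Interferon signalling is known to induce 3 alternative catalytic subunits, PSMB8, PSMB9 and PSMB10, which take the places of PSMB5, PSMB6 and PSMB7 in newly built barrels. This immunoproteasome, often capped by the PA28 activator of PSME1 and PSME2, yields peptides that are well suited to presentation on MHC class I molecules.

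Because interferon induces the immunoproteasome genes through sequences close to their start sites, their promoters are shown first. RefSeq promoter sequences of GRCh38.p14, from 250 bases before to 50 bases after the start, were matched for 42 of the 48 members, with 51 promoters in all. They were searched on both strands for the core of the interferon-stimulated response element (ISRE), here GAAA, any 2 bases and GAAA again. The lines below give 60 bases before and 20 bases after the start, 5′ to 3′ along the gene, and capitals mark the match or its reverse complement.
PSMB8: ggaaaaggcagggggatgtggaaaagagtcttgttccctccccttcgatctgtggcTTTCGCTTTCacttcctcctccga
PSMB9: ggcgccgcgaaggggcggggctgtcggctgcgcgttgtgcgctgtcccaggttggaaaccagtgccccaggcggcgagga
PSMB10: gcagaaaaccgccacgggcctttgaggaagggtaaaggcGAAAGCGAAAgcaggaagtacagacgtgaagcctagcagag
PSME1: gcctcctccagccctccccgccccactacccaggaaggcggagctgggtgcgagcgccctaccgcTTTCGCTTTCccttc
PSME2: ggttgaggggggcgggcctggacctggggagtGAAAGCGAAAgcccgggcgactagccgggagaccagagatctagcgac

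These windows lie at chr6:32844028-32844107 for PSMB8 on the minus strand, chr6:32854132-32854211 for PSMB9 on the plus strand and chr16:67936831-67936910 for PSMB10 on the minus strand. Those of PSME1 and PSME2 are chr14:24136134-24136213 on the plus strand and chr14:24146591-24146670 on the minus strand. The match began 4 bases before the start in PSMB8, 21 before it in PSMB10, 28 before it in PSME2 and 5 after it in PSME1. PSMB9 had no match in its 300 bases, which says only that these letters are not there. PSMB8 has a further RefSeq start in the table, whose promoter held no match either. Among the 37 other member genes with a promoter, 3 held the ISRE letters (PSMA4, PSMB4 and PSMG4), and of all 35116 RefSeq promoters of this length 3.57% did. TGACNNNGC (N being any base), the core of the antioxidant response element to which NFE2L1 and NFE2L2 bind, was in 29.4% of the members' promoters against 13.3% of all. The letters of the NF-κB site (GGGA, any 3 bases, TCC) were in 3.92% against 5.07%, and CCAAT was in 39.2% against 34.6%. A match is a description of these letters, and no binding was measured in this study.

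Library totals ran from 9390790 counts (COV362 DMSO A) to 18262805 (COV362 DMSO B), and the members together held 0.911 to 1.22% of them. Short genes had relatively more counts in the 4 A libraries, with a Spearman correlation of −0.40 to −0.33 between exon length and the deviation from the group mean over the 46 members. The members are short, with a median exon length of 1583 bases against 3208.5 for all 14498 tested genes, and their median deviation in the A libraries was 0.08 to 0.21 on the log2 scale. Of the 8 ovarian and epithelial marker genes all were tested, although EPCAM had a mean of only 11.9 CPM in COV362 DMSO and SOX17 had 0 counts in every PEO1 library. The defining leukocyte genes PTPRC and CD3E were between 0 and 0.235 CPM in every library, CPM being counts per 1000000 after edgeR's TMM scaling. All 6 leukocyte markers summed to 31.3 to 42.7 CPM in COV362 DMSO and 50.1 to 60.3 CPM with the drug, where DESeq2 called CD68 higher. The 5 fibroblast markers summed to 7.18 to 9.58 CPM in COV362 DMSO and 5.16 to 7.37 CPM in PEO1 DMSO. Of these, edgeR, DESeq2 and limma-voom all called PDGFRB lower in PEO1 DMSO. With the drug the fibroblast sums were 6.35 to 8.44 and 3.93 to 6.64 CPM. In bulk RNA, fewer cells of a kind and less RNA per cell cannot be told apart.

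The proteasome genes that could not be tested were the tissue-restricted ones. PSMB11, the catalytic subunit of the thymoproteasome in thymic epithelium, had 0 counts in all 12 libraries. PSMA8, the alpha subunit of the testis proteasome, had 1 count, in PEO1 prexasertib B. The other 46 were transcribed in both lines, with group means per kilobase of exon from 3.20 ± 0.409 (PSMB9) to 958 ± 236 CPM per kb (PSMB4) in COV362 DMSO (SD, n = 3). In PEO1 DMSO the range was 6.13 ± 0.788 (PSMG4) to 425 ± 53.1 CPM per kb (PSMA7).

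Subunits that are assembled in equal number did not have equal transcript levels per kb of exon. In the constitutive 20S core of COV362 DMSO, the level of PSMB4 per kb was 13.0 times that of PSMB2, the lowest, at 73.8 ± 15.5 CPM per kb. In PEO1 DMSO, PSMA7 was 10.3 times PSMB2. Among the 17 genes of the 19S cap the highest per kb in COV362 DMSO was PSMD4, a ubiquitin receptor, with 402 ± 66.9 CPM per kb, 6.99 times PSMC6. In PEO1 DMSO the scaffold subunit PSMD2 was highest with 393 ± 11.9 CPM per kb, 9.33 times PSMD11. The assembly chaperones leave the finished particle. In COV362 DMSO, PSMD5, PSMD9 and PSMD10 of the 19S base summed to 101 ± 4.64 CPM per kb and PSMG1 to PSMG4 of the 20S core to 119 ± 22.5 CPM per kb. In PEO1 DMSO these sums were 108 ± 8.15 and 126 ± 18.9 CPM per kb, and PSMG2 alone, with 65.9 ± 7.55 CPM per kb, was above the mean of the core subunit PSMB2 (41.2 ± 2.82). The length counts every exon listed for a gene, 4846 bases for PSMB2 against 925 for PSMB4 and 1160 for PSMG2. Without division by length PSMG2 was below PSMB2. Which exons the cells used was not tested, so ranks and ratios per kb depend on this length.

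The DMSO-treated lines were compared first, since they set the level from which the drug acted. Here and below, called means that edgeR's quasi-likelihood (QL) test gave p under 0.05 after Benjamini-Hochberg (BH) adjustment over all tested genes. How many of all tested genes had groups that did not overlap was not counted. Statements on overlap therefore only describe the values of the genes named. In PEO1 the immunoproteasome genes were higher than in COV362 and most constitutive subunits were lower. Of the 46 members, 11 were higher and 20 lower in PEO1, that is 31 called, beside 57.7% of all tested genes called (29.1% higher and 28.6% lower). The median log2 difference of the members was −0.16, and that of all tested genes was −0.01. By role, 4 of 5 immunoproteasome genes were higher and 0 lower (median 0.74), while 5 of 7 constitutive beta genes were lower and 0 higher (median −1.01). Of the 7 alpha genes 1 was higher and 3 lower, of the 6 ATPase genes 1 higher and 5 lower, and of the 11 non-ATPase genes of the cap 1 higher and 5 lower. The ATPase genes PSMC1, PSMC3 and PSMC5 lost the call in 3 of 6 fits that left out 1 library (up to 0.102, 0.217 and 0.101), PSMC1 without COV362 DMSO B, PEO1 DMSO A or PEO1 DMSO C and the others without COV362 DMSO A, PEO1 DMSO B or PEO1 DMSO C.

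PSMB9, the immunoproteasome counterpart of PSMB6 (chromosome 6, 32854161 to 32859851 in hg38), parted the lines most of all members. It measured 3.15, 3.07 and 3.85 CPM in COV362 DMSO A, B and C, and 22.6, 23.5 and 21.0 CPM in PEO1 DMSO. Every PEO1 library was far above every COV362 library, a 6.64-fold difference (log2 2.73 ± 0.26 SE, edgeR QL, BH-adjusted p = 9.21e-07). PSMB6 itself (chromosome 17, 4796144 to 4798503) went the other way, with 604, 410 and 425 CPM in COV362 DMSO and 172, 139 and 139 CPM in PEO1 DMSO. It was 3.20-fold lower in PEO1 (−1.68 ± 0.21, edgeR QL, BH-adjusted p = 1e-05), with no overlap between the groups.

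The other immunoproteasome genes differed less. PSME1 (chromosome 14, 24136158 to 24138967) and PSME2 (chromosome 14, 24143365 to 24146646), the neighbouring genes of the PA28 activator, were 1.67-fold and 1.69-fold higher in PEO1 DMSO (0.74 ± 0.15 and 0.76 ± 0.15, edgeR QL, BH-adjusted p = 0.000845 and 0.000681). PSMB8, the counterpart of PSMB5 (chromosome 6, 32840717 to 32844935), was 1.46-fold higher (0.54 ± 0.13, adjusted p = 0.00225). In these 3 genes every PEO1 library was above every COV362 library. PSMB10, the counterpart of PSMB7 (chromosome 16, 67934504 to 67936877), had 15.5, 11.0 and 12.1 CPM in COV362 DMSO and 11.8, 11.3 and 14.6 CPM in PEO1 DMSO, and the groups overlapped (−0.03 ± 0.26, adjusted p = 0.941).

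**Figure D1:**
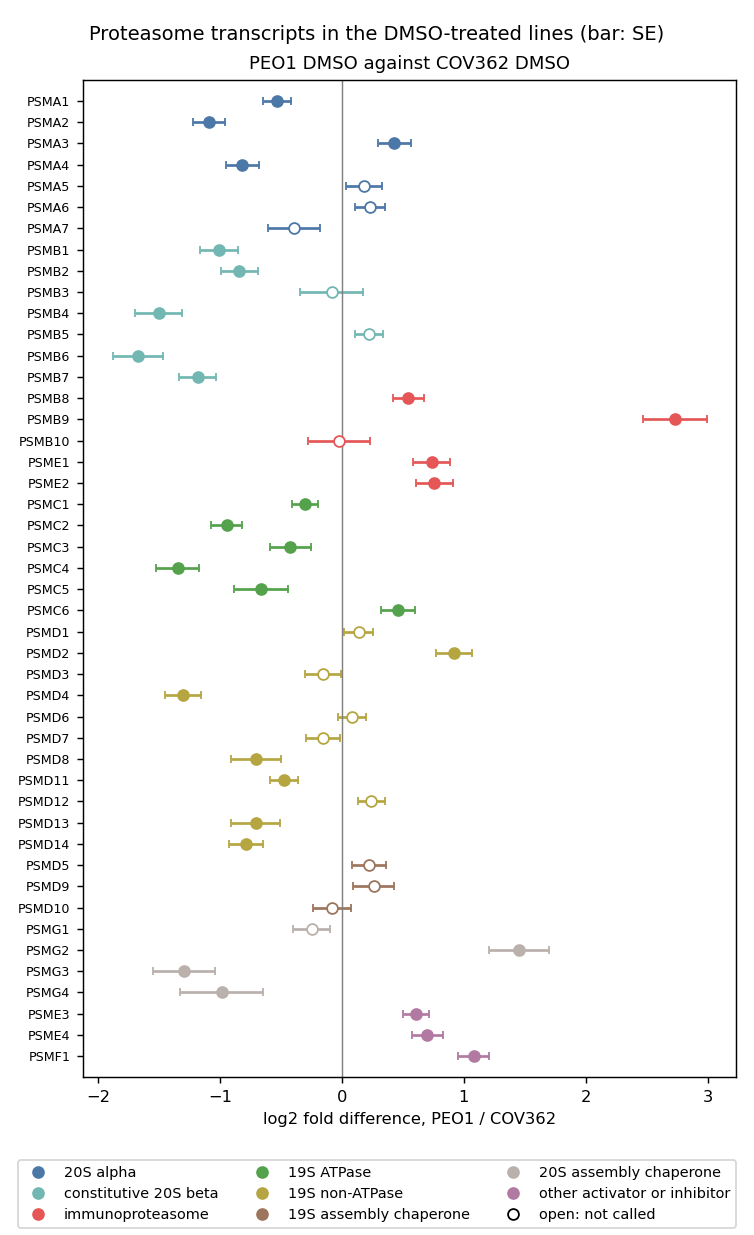
Log2 fold difference of the 46 tested proteasome genes between PEO1 DMSO and COV362 DMSO (horizontal axis), 1 gene per row and coloured by role, with bars for the standard error (n = 3 libraries per line) and filled points for genes called by edgeR. PSMB9 lies farthest to the right at 2.73 and PSMB6 farthest to the left at −1.68, and 4 of 5 immunoproteasome genes are filled on the right.

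Below PSMB6, the largest negative differences were in PSMB4, PSMC4 and PSMD4. PSMB4, a beta subunit without a protease site, had 1137, 739 and 782 CPM in COV362 DMSO against 358, 304 and 275 CPM in PEO1 DMSO (−1.50 ± 0.19, edgeR QL, BH-adjusted p = 1.48e-05). PSMC4, an ATPase of the cap, was at −1.35 ± 0.17 and PSMD4 at −1.31 ± 0.15 (adjusted p = 1.52e-05 and 4.65e-06). PSMB7 was at −1.18 ± 0.15, whereas PSMB5, the main target of clinical proteasome inhibitors, was at 0.23 ± 0.11 and was not called (adjusted p = 0.109). PSMB5 was called higher in PEO1 with the length correction (0.33, adjusted p = 0.00989), without the A libraries (0.28, 0.0377) and without COV362 DMSO A (0.30, 0.0463).

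Members higher in PEO1 outside the immunoproteasome were a mixed set of 7. PSMG2, a chaperone that pairs with PSMG1 in building the alpha ring, had 40.2, 23.1 and 21.2 CPM in COV362 DMSO and 85.0, 76.6 and 67.5 CPM in PEO1 DMSO (1.45 ± 0.25, edgeR QL, BH-adjusted p = 0.000186). Its partner PSMG1 was not called (−0.25 ± 0.15, adjusted p = 0.177, and 0.0487 without PEO1 DMSO A), and PSMG3 and PSMG4, which pair with each other, were lower (−1.29 ± 0.25 and −0.99 ± 0.34). PSMG4 was not called without COV362 DMSO A, PEO1 DMSO B or PEO1 DMSO C (adjusted p up to 0.0740). All 3 genes of the remaining regulators of the core were higher in PEO1: PSMF1, the inhibitor PI31 (1.08 ± 0.12), PSME4, the activator PA200 (0.70 ± 0.13), and PSME3, the nuclear activator PA28 gamma (0.60 ± 0.11). PSMD2 was at 0.92 ± 0.15, and the 2 left of the 7 were PSMC6 (0.46 ± 0.14) and PSMA3 (0.43 ± 0.13). PSMC6 was not called without PEO1 DMSO B (adjusted p = 0.0833), and PSMA3 not without COV362 DMSO C or PEO1 DMSO B (up to 0.0878).

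Summed per kb, the constitutive beta genes held 2971 ± 678 CPM per kb in COV362 DMSO and 1514 ± 221 in PEO1 DMSO, while the 5 immunoproteasome genes held 306 ± 47.4 and 515 ± 59.5 CPM per kb (SD, n = 3). The immunoproteasome genes made up 3.84 to 3.97% of the members' summed level per kb in COV362 DMSO and 8.88 to 9.11% in PEO1 DMSO. Most of that level is PSME1 and PSME2. The catalytic subunit PSMB8 was at 18.5 ± 0.960 and 27.0 ± 2.55 CPM per kb in the DMSO groups of COV362 and PEO1.

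In COV362 cells, 20 nM prexasertib left every proteasome gene uncalled in the main fit, which did not pair the libraries by letter. EdgeR's QL test called 0 of 46 members, beside 0.828% of all tested genes (0.607% higher and 0.221% lower), DESeq2 and limma-voom also called 0, and 1 member had an unadjusted p under 0.05. The log2 changes ran from −0.27 (PSMD10) to 0.43 (PSMG4), all within 0.5 of no change, with standard errors of 0.11 to 0.33. The median was 0.05 over the members and −0.01 over all tested genes. With a block for the replicate letter, in which both lines share 1 effect per letter, 2 of 46 were called. Both were higher, beside 9.65% of all genes called (4.2% higher). These were PSMC4 (0.29, adjusted p = 0.0404 with the replicate block) and PSMF1 (0.30, adjusted p = 0.0379).

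The immunoproteasome genes of COV362 changed little beside their spread. PSMB8 had 34.5, 33.0 and 31.1 CPM in DMSO and 35.0, 39.4 and 36.0 CPM with the drug, so that the groups did not overlap but lay close together (0.16 ± 0.13, edgeR QL, BH-adjusted p = 0.676). PSMB9 had 2.13, 4.75 and 4.36 CPM in the treated libraries, a spread that covered all 3 DMSO values (0.17 ± 0.27, adjusted p = 0.871). These PSMB9 values rest on 26 to 77 counts per library. PSMB10, PSME1 and PSME2 were at 0.05 ± 0.26, 0.02 ± 0.15 and 0.11 ± 0.15, with overlapping groups. PSMB5 was at −0.13 ± 0.11 and PSMB6 at 0.13 ± 0.20.

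By role, the largest changes in COV362, none called without the block, were these. Among alpha genes it was PSMA5 (0.10 ± 0.15), among constitutive beta genes PSMB5, among ATPases PSMC4 (0.28 ± 0.17, adjusted p = 0.551) and among non-ATPases PSMD8 (0.27 ± 0.21). PSMF1 had 98.8, 78.1 and 91.8 CPM in DMSO and 123, 101 and 108 CPM with the drug (0.30 ± 0.12, edgeR QL, BH-adjusted p = 0.317), and every treated library was above every DMSO library. PSMG4 had 15.8, 11.2 and 11.2 CPM in DMSO and 27.4, 11.7 and 12.4 CPM with the drug. Its change of 0.43 ± 0.33 rests on the treated A library, and without that library it was −0.07.

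In PEO1 cells, prexasertib lowered 4 of the 5 immunoproteasome genes, while 0 of 14 genes of the constitutive core were called, or 4 of 14, all lower, with a correction for exon length. Of the 46 members 2 were higher and 5 lower, beside 29.3% of all tested genes called (14.7% higher and 14.6% lower). The share of members called was thus 15.2%, below that of all genes. Of the 5 immunoproteasome genes 4 were lower and 0 higher, with a median change of −0.71 against 0.01 for all tested genes and −0.06 for the 41 other members. With the length correction 4 members were higher and 11 lower, 32.6% of them beside 37.2% of all genes, and at an adjusted p under 0.01 there were 0 and 3.

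PSMB9 fell most. It had 22.6, 23.5 and 21.0 CPM in PEO1 DMSO and 9.75, 7.58 and 9.72 CPM with prexasertib, a 2.48-fold decrease (−1.31 ± 0.24, edgeR QL, BH-adjusted p = 0.0013). Every treated library was at less than 10 CPM and every DMSO library above 20 CPM, though the treated level was still above all 6 COV362 libraries. PSMB8 fell 1.61-fold, from 50.9, 50.1 and 42.7 CPM to 28.0, 29.8 and 31.2 CPM (−0.69 ± 0.13, adjusted p = 0.00138). The groups did not overlap, and the treated values of PSMB8 lay below the lowest value in COV362 DMSO in 2 of 3 libraries.

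PSMB10 had 11.8, 11.3 and 14.6 CPM in PEO1 DMSO and 5.81, 4.78 and 9.23 CPM with the drug (−0.93 ± 0.26, edgeR QL, BH-adjusted p = 0.0161). The groups did not overlap, but the call depended on PEO1 prexasertib B, without which the change was −0.79 (adjusted p = 0.0575). PSME1 fell 1.63-fold, from 281, 257 and 227 CPM to 171, 142 and 157 CPM (−0.71 ± 0.15, adjusted p = 0.00351). All treated PSME1 values lay well under all DMSO values. PSME2 was lower in all 3 treated libraries as well, with 227, 196 and 169 CPM in DMSO and 163, 146 and 156 CPM with the drug, but was not called (−0.35 ± 0.15, adjusted p = 0.0936). PSME2 was called without PEO1 DMSO C (−0.50, adjusted p = 0.0372), with the length correction (−0.38, 0.00937) and from the PEO1 libraries alone (−0.35, 0.0382).

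**Figure D2:**
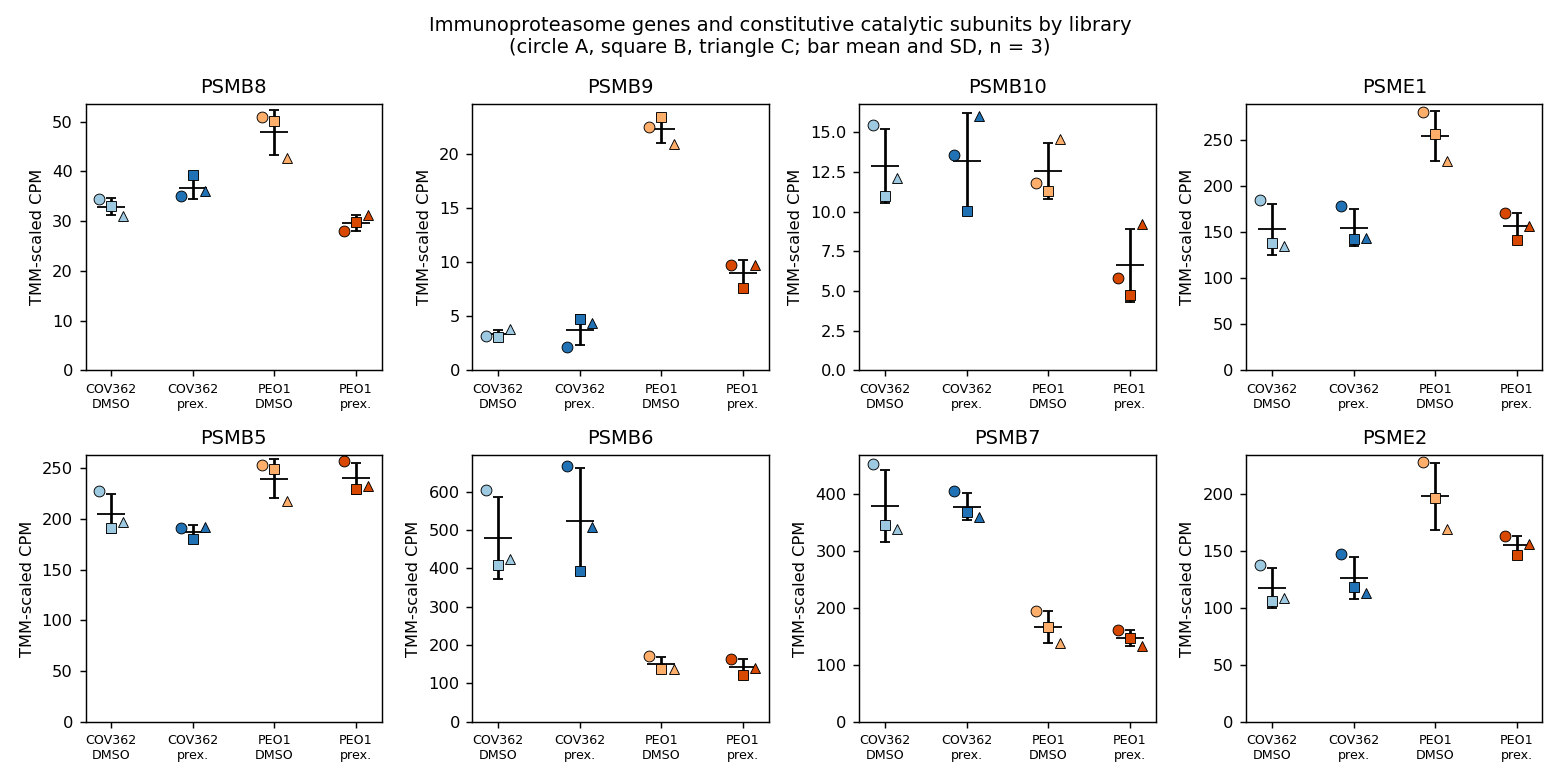
TMM-scaled CPM (vertical axes, starting at 0) of the 5 immunoproteasome genes and the constitutive catalytic genes PSMB5, PSMB6 and PSMB7 in each library of the 4 groups, with the letter as marker shape, the mean as a line and the SD as a bar (n = 3). In PEO1 the treated libraries of all 5 immunoproteasome genes lie below the DMSO libraries, PSMB9 at 7.58 to 9.75 against 21.0 to 23.5 CPM, while those of PSMB5, PSMB6 and PSMB7 overlap with DMSO. The share of all tested genes with groups apart in this way was not counted.

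The constitutive counterparts PSMB5, PSMB6 and PSMB7 were not called in PEO1. PSMB5 had 253, 249 and 217 CPM in DMSO and 257, 230 and 233 CPM with the drug, groups that overlapped fully (0.00 ± 0.11, edgeR QL, BH-adjusted p = 1). PSMB6 had 172, 139 and 139 CPM in DMSO and 163, 122 and 141 CPM with the drug (−0.08 ± 0.20), and PSMB7 was at −0.18 ± 0.15. Of the 14 constitutive core genes tested, edgeR called 0 (0 at an unadjusted p under 0.05), with changes from −0.33 (PSMA7, adjusted p = 0.261) to 0.24 (PSMA3) and a median of −0.03. Among the beta genes the largest change was −0.27 ± 0.26 (PSMB3). DESeq2 and limma-voom called 0 of these core genes as well. They called 6 and 7 of all members, 13% and 15.2%, beside 34.9% and 32% of all tested genes. With the exon length correction 4 core genes were called lower: PSMA7 (−0.35, adjusted p = 0.0113), PSMB4 (−0.26, 0.0248), PSMB3 (−0.32, 0.0428) and PSMB1 (−0.25, 0.0496). PSMA7 was also called without the A libraries (−0.37, adjusted p = 0.0482).

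The immunoproteasome subunits were also expressed as a percentage of their constitutive counterparts, per kb of exon within each library, which removes differences in library scaling. PSMB8 was at 16.5, 16.5 and 16.1% of PSMB5 in PEO1 DMSO and at 8.93, 10.7 and 11.0% with prexasertib. PSMB9 was at 12.5 ± 1.59% of PSMB6 in DMSO and 5.29 ± 0.387% with the drug (SD, n = 3). In both pairs the groups were apart, and the exact two-sided permutation test gave p = 0.1, the smallest that 3 against 3 libraries allow (0.15 adjusted over the 9 ratio tests). PSMB10 was at 7.86 ± 2.40% of PSMB7 in DMSO and 4.64 ± 2.05% with the drug, with overlapping groups (exact permutation p = 0.3, adjusted 0.386).

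In COV362 all 3 ratios had lower means in DMSO than in PEO1 DMSO. PSMB8 was at 13.2 ± 0.890% of PSMB5 in DMSO and 16.1 ± 1.60% with the drug, the groups being apart (exact permutation p = 0.1, adjusted 0.15). PSMB9 was at 0.603 ± 0.161% and 0.661 ± 0.372% of PSMB6, and PSMB10 at 3.43 ± 0.204% and 3.54 ± 0.875% of PSMB7, both with overlapping groups and with treated libraries above and below those in DMSO (exact permutation p = 0.9 and 1). Between the DMSO groups the PSMB9 to PSMB6 ratio differed by 4.41 on the log2 scale, with the groups apart (exact permutation p = 0.1, adjusted 0.15). PSMB8 and PSMB9 are listed in the table on chromosome 6 and on 7 alternate sequences of the same region, and PSMB3 on 1. Their levels per kb were computed with the exon length on the primary chromosome. How reads matching several places were counted is not stated, so the size of these percentages carries that uncertainty. The CPM values of these genes, and the differences computed from their counts, carry it too. HLA-B, B2M, TAP1, TAP2, TAPBP and IFNGR2, described below, are also listed on alternate sequences.

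**Figure D3:**
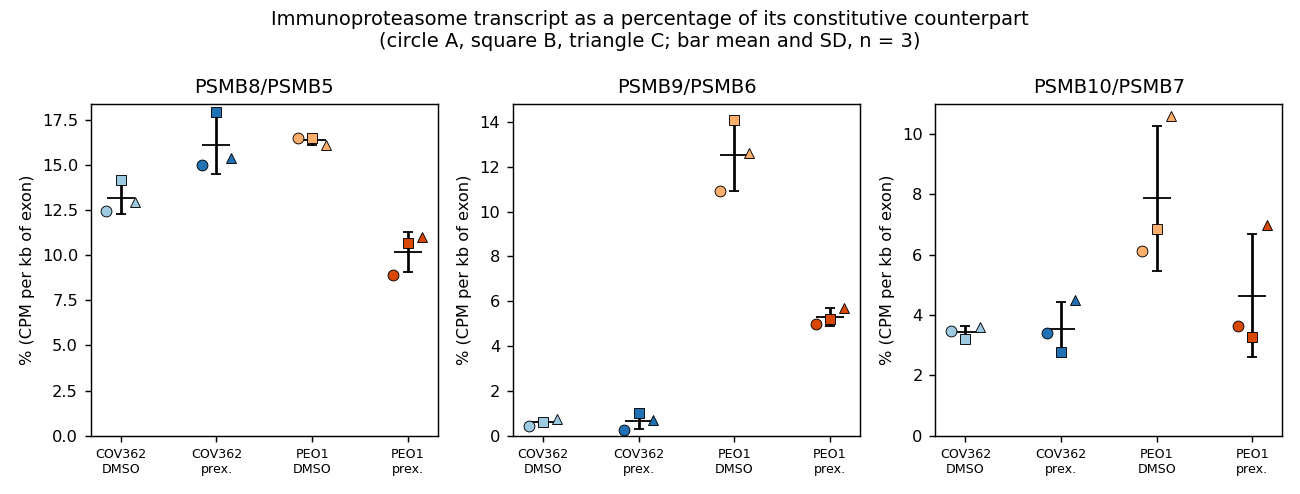
Level of PSMB8, PSMB9 and PSMB10 per kb of exon as a percentage of PSMB5, PSMB6 and PSMB7 (vertical axes, starting at 0) in each library, with mean and SD (n = 3). PSMB9/PSMB6 stands near 0.6% in COV362, at 12.5% in PEO1 DMSO and at 5.29% in treated PEO1, and PSMB8/PSMB5 goes from 16.4% to 10.2% in PEO1 and from 13.2% to 16.1% in COV362.

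In the 19S cap of PEO1, 2 of 17 genes were higher and 1 lower, a share of 17.6% beside 29.3% of all tested genes. PSMC2, an ATPase of the ring, had 193, 192 and 149 CPM in DMSO and 258, 247 and 232 CPM with the drug (0.47 ± 0.12, edgeR QL, BH-adjusted p = 0.0118). The groups did not overlap, but the call was lost without PEO1 DMSO C (0.30, adjusted p = 0.106), prexasertib A (0.38, 0.0778) or prexasertib B (0.41, 0.0656). PSMD1, the large scaffold of the base, fell from 264, 293 and 245 CPM to 190, 214 and 195 CPM (−0.42 ± 0.12, adjusted p = 0.0195, and 0.0599 without PEO1 DMSO B). PSMD7, the partner of the deubiquitinase PSMD14 in the lid, had 138, 123 and 105 CPM in DMSO and 182, 148 and 151 CPM with the drug (0.40 ± 0.14, adjusted p = 0.0458). PSMD7 was called in none of the 6 fits that left out 1 library (adjusted p from 0.0619 to 0.266), nor by DESeq2 (0.0537). PSMC4 was at 0.38 ± 0.17 and not called (adjusted p = 0.111), but was called with the length correction (0.0134), without the A libraries (0.0223) and from the PEO1 libraries alone (0.0261). PSMD8 was called with the length correction (0.34, 0.0384). The median of the 17 genes was −0.10.

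The assembly chaperones and other regulators were not called in PEO1. The 4 chaperones of the 20S core all had negative changes, from −0.42 ± 0.25 (PSMG3, adjusted p = 0.23) to −0.19 ± 0.15 (PSMG1), with a median of −0.36. In PSMG2 and PSMG3 every treated library was below every DMSO library. PSMG2 was called lower with the length correction (adjusted p = 0.047), without the A libraries (0.0275) and from the PEO1 libraries alone (0.0363). The 3 chaperones of the 19S base lay between −0.06 and 0.08. Among the other activators PSME3 was at 0.25 ± 0.11 (adjusted p = 0.0939), with all treated libraries above DMSO, PSME4 at 0.19 ± 0.13 and the inhibitor PSMF1 at 0.02 ± 0.12. Of these genes edgeR called 0, with 1 (PSME3) at an unadjusted p under 0.05, and DESeq2 and limma-voom called 0.

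**Figure D4:**
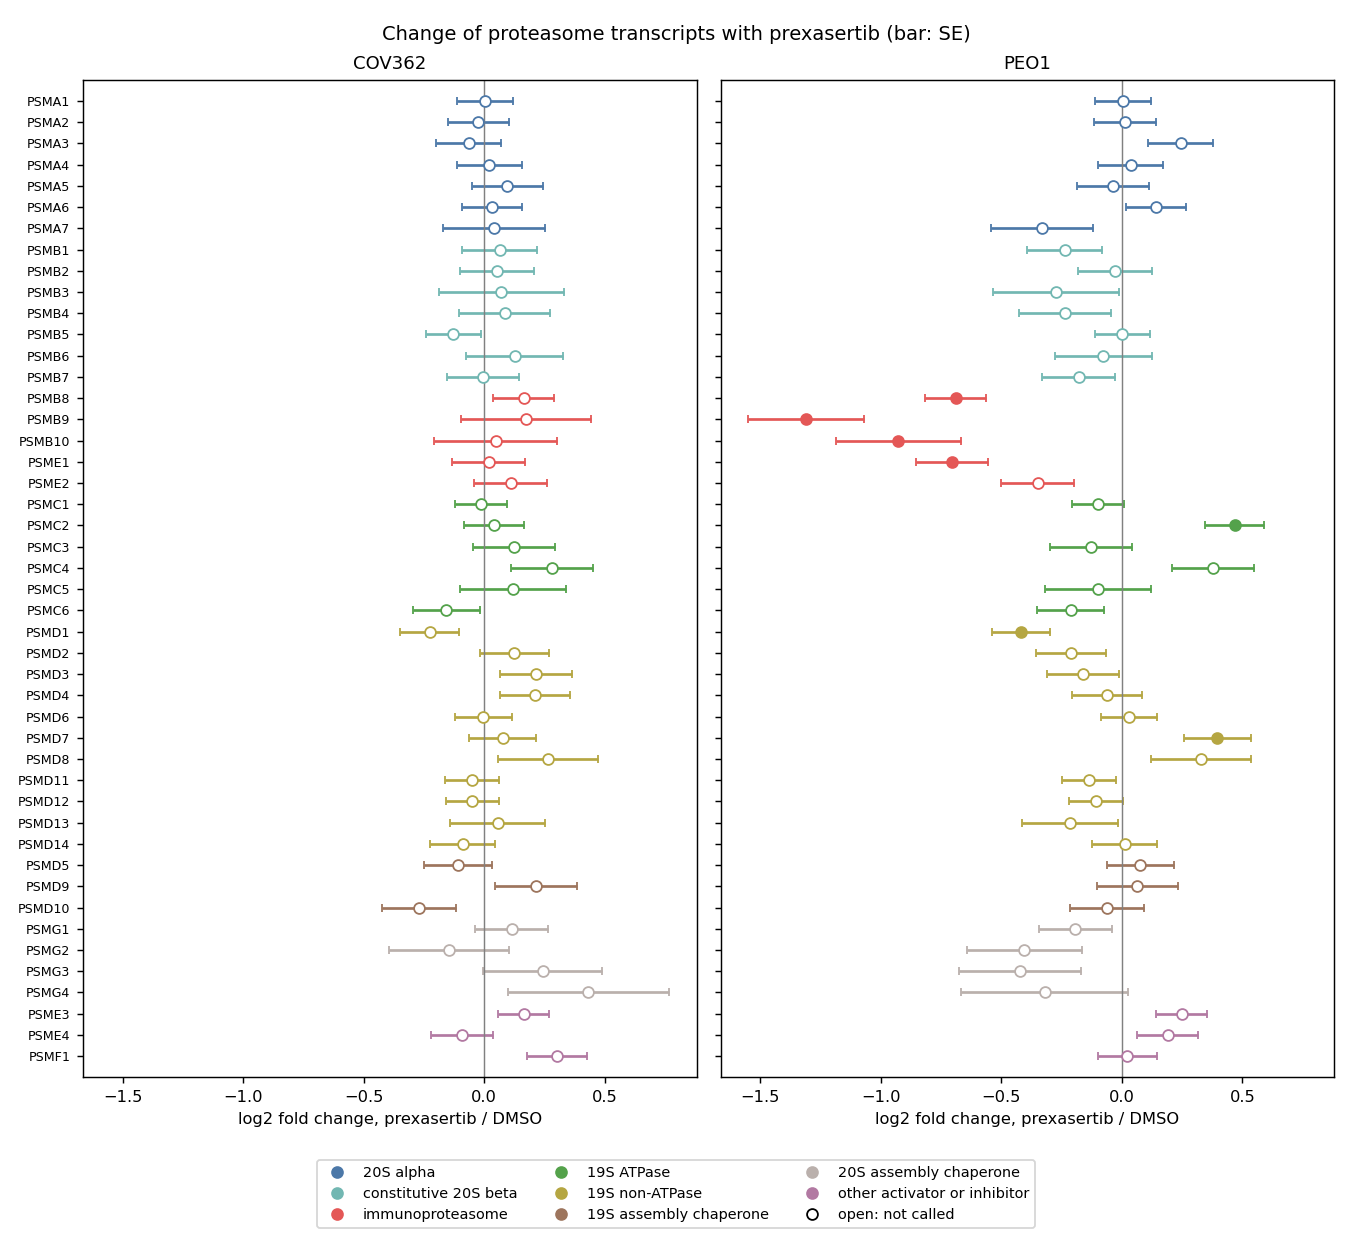
Log2 fold change with prexasertib of the 46 tested proteasome genes in COV362 (left) and PEO1 (right), coloured by role, with bars for the standard error and filled points for genes called by edgeR (n = 3 libraries per group). In COV362 all points lie within 0.5 of 0 and none is filled, and in PEO1 the filled points are PSMB8, PSMB9, PSMB10, PSME1 and PSMD1 on the left and PSMC2 and PSMD7 on the right.

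Other transcripts of the PEO1 libraries moved along with these. Of the 8 ovarian and epithelial markers 5 were lower with the drug (KRT7 −1.07, KRT8 −1.10, KRT18 −0.72, PAX8 −0.57 and WT1 −1.06; KRT18 was not called without PEO1 DMSO A, prexasertib B or prexasertib C, with adjusted p up to 0.0760), and the summed level of the list was 6532 to 7648 CPM in DMSO and 3420 to 4013 CPM with the drug. The share of these 8 markers called lower was 62.5%, beside 14.6% of all tested genes. EPCAM was at 0.10 ± 0.18 and not called. The 6 leukocyte markers summed to 37.2 to 42.6 CPM in DMSO and 32.5 to 39.2 CPM with the drug, nearly all of it CD68, which tumour cells also express, while PTPRC was between 0 and 0.0549 CPM. CD14 fell by 1.64 ± 0.48 on the log2 scale, from a mean of 4.27 to 1.37 CPM (adjusted p = 0.0211 in edgeR's QL test, and up to 0.0812 without PEO1 DMSO B or prexasertib B). Of the 3 endothelial markers CDH5 was lower with the drug, with 7.18, 6.62 and 5.88 CPM in DMSO and 1.53, 0.989 and 2.23 CPM with prexasertib (−2.05 ± 0.23, adjusted p = 4.07e-05), and PECAM1 and VWF were not called. The 3 summed to 6.43 to 7.38 CPM in DMSO and 1.32 to 3.62 CPM with the drug in PEO1, and to 73.8 to 88.2 and 46.5 to 51.0 CPM in COV362. The part of these markers in the fall of the immunoproteasome genes was not tested.

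Whether the lines responded differently was tested as the change in PEO1 minus the change in COV362, a comparison that uses the same libraries as both drug comparisons. PSMB8 and PSMB9 were the 2 members called, both lower, beside 6.1% of all tested genes called (3.14% higher and 2.97% lower). For PSMB8 the difference was −0.85 ± 0.18 (edgeR QL, BH-adjusted p = 0.0173), and it was called in all 12 fits that left out 1 library. For PSMB9 it was −1.48 ± 0.36 (adjusted p = 0.0303), and it was called in 5 of 12 such fits. It was lost without COV362 DMSO B, COV362 prexasertib C, any PEO1 DMSO library, PEO1 prexasertib A or PEO1 prexasertib B, with adjusted p from 0.0517 to 0.0822 and differences from −1.60 to −1.37.

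The other 3 immunoproteasome genes had differences of the same sign. PSME1 was at −0.72 ± 0.21 and just missed the threshold (edgeR QL, BH-adjusted p = 0.0589). It was called by DESeq2 (−0.76, adjusted p = 0.0141), with the length correction (0.0105), without the A libraries (0.0129) and without COV362 DMSO A (0.0194) or COV362 prexasertib B (0.0412). PSMB10 was at −0.98 ± 0.36 (adjusted p = 0.119, and 0.0468 without PEO1 prexasertib C) and PSME2 at −0.46 ± 0.21 (0.195). The median difference was −0.85 over these 5 genes, −0.09 over the other 41 members and 0.03 over all tested genes. Among those 41 members edgeR called 0, with 1 (PSMC2, 0.43 ± 0.17) at an unadjusted p under 0.05 and 0 called by DESeq2 or limma-voom. DESeq2 and limma-voom called 3 and 2 of the 46 members, 6.52% and 4.35%, beside 13.6% and 6.09% of all tested genes. Over the 46 members the drug changes of the lines had a Spearman correlation of −0.04 and the same sign in 18 genes, given as a description across genes that are not independent.

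The list of genes that bind or build the proteasome, 13 tested, had 4 higher and 1 lower in treated PEO1, a share of 38.5% beside 29.3% of all tested genes. AKIRIN2, which carries proteasomes into the nucleus, rose from 53.7, 39.5 and 40.0 CPM to 118, 89.4 and 91.1 CPM (1.16 ± 0.19, edgeR QL, BH-adjusted p = 0.000729). All treated values were above all DMSO values, and the call held in all 6 fits that left out 1 library. PITHD1, a 19S-bound factor, was at 0.85 ± 0.22 (adjusted p = 0.0107, and up to 0.0696 without PEO1 DMSO C or prexasertib A). ZFAND2A and ZFAND5, stress-linked proteasome binders, were at 0.87 ± 0.28 and 0.42 ± 0.12 (adjusted p = 0.0313 and 0.0221) and were called in none of these 6 fits. The ubiquitin ligase gene UBE3C was at −0.45 ± 0.16 (0.0468) and kept the call without PEO1 DMSO A but lost it without each of the other 5 libraries (up to 0.0999). In PEO1 limma-voom called 4 higher and 1 lower, beside 32% of all tested genes called. DESeq2 called 4 higher and 3 lower, ADRM1 and KIAA0368 being lower beside UBE3C, while it called 34.9% of all tested genes. With the replicate block 5 were higher and 3 lower, 61.5% beside 47.8%. In COV362 edgeR, DESeq2 and limma-voom called 0 of the 13, with 1 at an unadjusted p under 0.05 in edgeR, AKIRIN2 (0.54 ± 0.20, adjusted p = 0.246). With the replicate block 3 of the 13 were higher and 0 lower in COV362, 23.1% beside 9.65% of all tested genes. The difference between the lines was 0.62 ± 0.27 for AKIRIN2 (0.176). For this difference edgeR and limma-voom called 0 of the 13, and DESeq2 called 1, ADRM1, lower (beside 13.6% of all tested genes called).

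NFE2L1 is the transcription factor known to raise constitutive proteasome genes when the proteasome is impaired, with small MAF proteins as partners. NFE2L1 itself was at 0.01 ± 0.10 in COV362 and −0.06 ± 0.10 in PEO1 and was called in neither. Of the 7 genes of this list, 1 was higher in COV362, 14.3% beside 0.828% of all tested genes called. In PEO1 2 were higher, 28.6% beside 29.3%. With the replicate block 2 were higher in COV362 (28.6%, beside 9.65%) and 4 in PEO1 (57.1%, beside 47.8%), and 0 were lower. MAFF rose in both lines (1.18 ± 0.17 and 1.19 ± 0.16, edgeR QL, BH-adjusted p = 0.00442 and 0.000185). MAFG rose in PEO1, from 67.0, 64.7 and 68.6 CPM to 148, 149 and 149 CPM (1.15 ± 0.12, adjusted p = 2.06e-05), and the difference between the lines was 0.81 ± 0.17 (adjusted p = 0.0169, up to 0.0657 without any 1 of the PEO1 libraries).

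Among 13 genes of ubiquitin supply and delivery, 3 were lower and 0 higher in treated PEO1, a share of 23.1% beside 29.3% of all tested genes. RAD23B, a shuttle that brings ubiquitin chains to the cap, fell from 379, 371 and 337 CPM to 257, 225 and 247 CPM (−0.58 ± 0.12, edgeR QL, BH-adjusted p = 0.00227). The polyubiquitin gene UBB was at −0.45 ± 0.16 (0.0491, lost without any 1 library of PEO1 but DMSO C, up to 0.114) and NPLOC4, a cofactor of the unfoldase VCP, at −0.34 ± 0.11 (0.0315, and up to 0.0753 without PEO1 DMSO C, prexasertib A or prexasertib B). In COV362 edgeR, DESeq2 and limma-voom called 0 of these 13, while in edgeR 2 higher and 1 lower had an unadjusted p under 0.05. With the replicate block 1 was higher and 1 lower in COV362, 15.4% beside 9.65% of all tested genes.

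Antigen processing genes, which work downstream of the immunoproteasome, did not move in 1 direction in treated PEO1. There 3 of 11 (27.3%) were called, beside 29.3% of all tested genes. HLA-B and B2M, the heavy and light chains of MHC class I, rose (0.85 ± 0.14 and 0.54 ± 0.12, edgeR QL, BH-adjusted p = 0.00061 and 0.00398), and TAPBP, the tapasin that loads peptides, fell (−0.61 ± 0.14, adjusted p = 0.00567). DESeq2 and limma-voom called these and ERAP2, 2 higher and 2 lower, beside 34.9% and 32% of all tested genes called. With the replicate block 3 were higher and 6 lower, 81.8% beside 47.8% of all tested genes. The peptide transporter genes TAP1 and TAP2 were at −0.52 ± 0.28 and −0.35 ± 0.19 and not called (0.184 and 0.181). TAP1 and PSMB9 lie head to head in the table with 189 bases between their starts. TAP1 had 20.6, 22.9 and 22.3 CPM in PEO1 DMSO and 12.9, 15.3 and 17.7 CPM with the drug, so its groups did not overlap either. In COV362, HLA-B was the 1 of 11 called (0.69 ± 0.14, adjusted p = 0.034, and up to 0.163 without COV362 DMSO A or B or prexasertib B or C). That is 9.09%, beside 0.828% of all tested genes. With the replicate block 3 of the 11 were higher and 0 lower in COV362, 27.3% beside 9.65% of all tested genes. In the DMSO-treated lines 8 of these 11 genes were higher in PEO1 and 0 lower, among them TAP1 (0.96 ± 0.29) and TAP2 (1.26 ± 0.19). That is 72.7% higher, beside 29.1% of all tested genes.

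The regulators through which interferon acts on the immunoproteasome were listed as well, 9 of 11 being tested. IFNG had 0 counts in all libraries, and IFNB1 reached at most 0.246 CPM. IRF1, a transcription factor known to induce PSMB8, PSMB9 and PSMB10, had 15.2, 14.95 and 19.4 CPM in COV362 DMSO and 28.5, 22.6 and 24.5 CPM with the drug (0.60 ± 0.16, edgeR QL, BH-adjusted p = 0.0963). In PEO1 it had 55.4, 52.4 and 46.6 CPM in DMSO and 43.5, 37.0 and 43.9 CPM with the drug (−0.31 ± 0.15, adjusted p = 0.136). Neither change was called, although the groups were apart in both lines, in opposite directions. Their difference was −0.91 ± 0.22 (adjusted p = 0.0276) and was called in 6 of 12 fits that left out 1 library (up to 0.0734 without COV362 DMSO B, COV362 prexasertib A or C, PEO1 DMSO A or B, or PEO1 prexasertib B). IRF1 was higher in PEO1 DMSO than in COV362 DMSO (1.63 ± 0.16, adjusted p = 9.47e-07). Of the 9 genes edgeR called 0 in either drug comparison, with 2 higher in COV362 and 3 lower in PEO1 at an unadjusted p under 0.05. With the replicate block 2 were higher and 1 lower in COV362 (33.3%, beside 9.65% of all tested genes). In PEO1 the block gave 1 higher and 4 lower (55.6%, beside 47.8%). DESeq2 called IRF1 higher in COV362 and the signalling genes STAT2, JAK1 and IFNGR2 lower in PEO1, and limma-voom called 0 in COV362 and JAK1 lower in PEO1.

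Some member counts can hold reads of other genes. Among the members, 5 share exon bases with another gene, the most being 389 bases of PSMB7 with LOC100129034, 226 of PSMB8 with PSMB8-AS1 and 105 of PSMC5 with FTSJ3, and without strand information those reads cannot be told apart. PSMB8-AS1 had a median of 22.5 counts per library against 285 to 922 for PSMB8. In GENCODE release 29, 12 members have pseudogenes named after them, 32 in all and 13 of PSMC1. Of the 5 immunoproteasome genes PSME2 has 2 such pseudogenes and the other 4 have 0.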

How the data were processed

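The authors deposited whole-number counts of reads per gene for each library, without normalization, in a table with exon coordinates and lengths per the file headers. STAR and featureCounts 1.4.6 of Subread with build hg38 are named in the submitters' processing notes, with no roles given. Per the labels' protocols, column-extracted RNA was made into libraries with a TruSeq version 2 RNA kit.

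Genes were kept with filterByExpr (minimum count 10, minimum total 15), scaled with TMM (trimmed mean of M-values) and fitted with edgeR 4.0.16 (R 4.3.3) in 1 quasi-likelihood model of 4 group means (8 residual degrees of freedom) and BH adjustment over 14498 genes. Standard errors are the absolute log2 fold change divided by the square root of F. The fit was tested on simulated data with the same spread for all genes, no letter effect and no length trend. That simulation cannot show how letters or exon length affect the calls. DESeq2 1.42.0, limma-voom 3.58.1, other scaling, no filter, a replicate block, an exon length correction, a stricter threshold and fits without single libraries were the alternatives.

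Members and lists were chosen with earlier results of these data known. Named always were the 5 immunoproteasome genes and PSMB5, PSMB6 and PSMB7, then up to 4 called members at each end of a comparison with at least 1 CPM, and the largest drug change of each class. Other genes are named from the related lists. 1 further motif searched is not reported here.

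Same-lettered libraries deviated together in COV362 (correlations of deviations from group means 0.410, 0.423 and 0.133 for A, B and C). In PEO1 these were 0.302, 0.171 and 0.0813, also positive, so these values do not part the lines clearly. The main fit paired the letters in neither line. The replicate block is given beside it as an alternative.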

Additional observations from a re-analysis of the deposited data

Results flagged for a closer look

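A formal test found that prexasertib changed 2 proteasome genes differently in the lines. The change in PEO1 minus that in COV362 was −0.85 on the log2 scale for PSMB8 and −1.48 for PSMB9, lower in PEO1 in both (edgeR QL, BH-adjusted p = 0.0173 and 0.0303). Outside the members the same test passed for 2 genes of the related lists. MAFG, a small MAF partner of NFE2L1, had a difference of 0.81 (adjusted p = 0.0169), and IRF1 one of −0.91 (adjusted p = 0.0276). Of these 4, PSMB8 was called in all 12 fits that left out 1 library, IRF1 and MAFG in 6 and PSMB9 in 5.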

How the results depend on the processing

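The members' calls depended on how the letters of the libraries were treated and, in PEO1, on the exon length correction. In COV362, where 0 were called, the replicate block gave 2 (beside 9.65% of all genes), the block with the exon length correction 5 (1 higher and 4 lower, 10.7%) and a replicate block within each line, chosen after seeing the data, 3 (13.6%). In PEO1, where 7 were called, the replicate block gave 19 (6 higher and 13 lower), 41.3% of the members beside 47.8% of all genes. The length correction gave 15 (37.2% of all genes), both together 23 (6 and 17, 50.5%), the block within line 21 (51.4%) and an adjusted p under 0.01 gave 3 (16%). The block's calls in PEO1 held 5 of 14 constitutive core genes: PSMA7 (−0.35, adjusted p = 0.004), PSMB3, PSMB1 and PSMB4 lower and PSMA3 higher (0.030 to 0.037). They also held all 5 immunoproteasome genes, PSME2 included (−0.34, 0.003). For the difference between the lines, with 2 called, the settings gave 11 (block, 23.9% of the members beside 29.1% of all genes), 12 (block with length correction, 30.4%), 15 (block within line, 33.8%) and 0 (adjusted p under 0.01, 1.08%). The block's 11 were the 5 immunoproteasome genes, with PSMB10 at −0.98 (adjusted p = 0.0089), PSME1 at −0.73 (0.00021) and PSME2 at −0.45 (0.010) beside PSMB8 and PSMB9, and 6 others: PSMA7 (−0.39, 0.029), PSMB4 (−0.33, 0.0499), PSMD2 (−0.34, 0.043), PSMD3 (−0.38, 0.018), PSMG3 (−0.61, 0.033) and PSMC2 (0.43, 0.012). Between the DMSO groups the block also called PSMB5 (0.23, 0.020). Since the labels do not say that the letters pair libraries, the block is no evidence of pairing in either line. In PEO1, DMSO A and B, but not C, correlated best with the treated library of their own letter. In COV362 every DMSO library did, but prexasertib C correlated slightly more with DMSO B (0.138) than with DMSO C (0.133). Leaving out 1 library gave 0 calls in COV362, 4 to 6 in PEO1, 1 to 3 for the difference and 26 to 31 for the DMSO comparison. The share of all genes called in these smaller fits is not given here, so fewer calls need not be particular to the members. The DMSO comparison had 31 calls in the main fit and 36 with the block (78.3% of the members beside 68.4% of all genes). Of 826 other values of single genes 710 kept direction and side of the threshold, 21 lost the call, 50 gained it and 45 changed sign.

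The sign changes were in genes not called in the comparison. PSMB5 in PEO1 was at −0.037 by DESeq2, −0.020 with upper-quartile scaling, −0.061 with no filter, −0.0031 from the comparison's own libraries, −0.015 without the A libraries, and −0.12 to −0.014 without single libraries. PSMB7 in COV362 was at 0.0061 by limma-voom, 0.040 with upper-quartile scaling, 0.0070 with either block, 0.0015 from the comparison's own libraries, 0.096 without the A libraries, and −0.081 to 0.14 without single libraries. PSMB10 between the DMSO groups was at 0.014 by limma-voom, 0.21 with the length correction, 0.18 with the block as well, 0.17 without the A libraries, and −0.15 to 0.12 without single libraries. With the length correction, and then with the block as well, COV362 changes were −0.071 and −0.099 for PSMB10, −0.094 and −0.093 for PSME1, −0.023 and −0.024 for PSME2, and −0.014 and −0.016 for PSMB6. Without single libraries the COV362 ranges were −0.12 to 0.21 for PSMB10, −0.094 to 0.17 for PSME1, −0.016 to 0.23 for PSME2, −0.089 to 0.32 for PSMB6, −0.027 to 0.43 for PSMB9 and −0.067 to 0.64 for PSMG4, and for PSMB6 in the difference −0.41 to 0.0073. In COV362 the log2 change of PSMB9/PSMB6 was −0.44 to 0.53 and that of PSMB10/PSMB7 −0.16 to 0.19. The cause of these changes was not tested. Depth limits PSMB9 in COV362 most, with 26 counts in the lowest library.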
